A study of Mus musculus with 4 samples.

Results

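The cholesterol synthesis genes described here were the 8 genes Hmgcs1, Idi1, Fdps, Fdft1, Sqle, Lss, Dhcr7 and Insig1, found by taking every gene probe whose name in the array files is one of these symbols. They were covered by 17 of the 41174 gene probes, and by 8 of the 27343 gene names, on a dual-color whole mouse genome array. The first 7 code for enzymes of the cholesterol pathway, and Insig1 codes for a regulator of it. No uptake receptor is among the 8.

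Cells make cholesterol from acetyl-CoA through mevalonate, isoprenoid diphosphates, squalene and lanosterol. The transcription factor SREBP2 switches the genes of this route on when sterols in the endoplasmic reticulum run low, and INSIG proteins hold SREBP and its partner SCAP back when sterols are plentiful. In the intestine, epithelial cells both take up sterols and synthesize them.

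The 8 genes were followed in 2 experiments on C57BL/6 mice, which per the methods were male and 6 to 8 weeks old. In the first, colon RNA of Rspo3 KO mice (Myh11CreErt2/Rspo3 fl/fl, labeled Rspo3 KO) was hybridized against that of control littermates that carried the same Cre with intact Rspo3 alleles (Myh11CreErt2/Rspo3+/+, labeled Rspo3++), 2 weeks after tamoxifen, with 1 mouse per channel, 2 arrays and the dyes reversed between them. Rspo3 codes for a secreted enhancer of Wnt signaling, and the Cre deletes it only in cells that express Myh11, such as smooth muscle cells and myofibroblasts. In the second, ESA+ epithelial cells of Axin2CreErt2/Rosa26-tdTomato mice were sorted 24 h after tamoxifen into tdTomato-positive (Axin2+, labeled Axin+) and tdTomato-negative (Axin2-, labeled Axin-) cells, which mark cells with and without expression of the Wnt target gene Axin2 at the time of labeling. RNA was pooled from 3 mice and both pools were hybridized against each other on 2 arrays with reversed dyes, so these arrays are 1 replicate with a technical dye swap and carry no test. Tamoxifen was given to all of these mice at 4 mg per 25 g bodyweight, as a single dose or on up to 3 days. The labels name distal colon for the first experiment, where the methods name colon.

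Between 53.1% and 60.3% of gene spots were well above background per channel. Precision is limited by having 2 arrays per experiment. The Rspo3 probe that was measured at all was above background on only 1 of the 2 KO arrays, where KO over control was 0.17 on the log2 scale, so the deletion cannot be seen here, and where the probe lies relative to the deleted part was not determined. Lgr5, a stem cell gene under Wnt control, was at least 3.85-fold lower in the KO channels, where it was not well above background (limma adjusted p = 0.0991). Its log2 ratio was -1.28 in pair 1 and -2.61 in pair 2, so this bound moves by over 1.5 times with either pair left out. In the sorted cells the Axin2 probe had log2 ratios of 1.35 and 1.30 of Axin2+ over Axin2-, in the direction of the labels. Log2 ratios of all genes correlated between the 2 sort arrays (Pearson r = 0.92 across genes) and hardly between the 2 KO pairs (r = 0.033, Spearman rho = -0.12), and genes are not independent replicates. In the KO arrays each pair of mice had its own dye orientation, so differences between the pairs and between the dyes cannot be told apart. Levels are from whole colon in the first experiment, where fewer cells of a type and less RNA per cell cannot be told apart.

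The promoters of 4 of the 8 genes are shown because SREBP acts through such sequences, 250 bases before to 50 bases after the start of the gene on the plus strand, from RefSeq (GRCm38.p6). Capitals mark the letters TCACNCCAC (core of the sterol regulatory element that SREBP binds), CCAAT (bound by NF-Y), GGGCGG (bound by Sp1) and CACGTG (an E-box), on either strand. Hmgcs1 lies at chr13:119690101-119690400, Idi1 at chr13:8885356-8885655, Lss at chr10:76531355-76531654 and Insig1 at chr5:28071162-28071461.
Hmgcs1: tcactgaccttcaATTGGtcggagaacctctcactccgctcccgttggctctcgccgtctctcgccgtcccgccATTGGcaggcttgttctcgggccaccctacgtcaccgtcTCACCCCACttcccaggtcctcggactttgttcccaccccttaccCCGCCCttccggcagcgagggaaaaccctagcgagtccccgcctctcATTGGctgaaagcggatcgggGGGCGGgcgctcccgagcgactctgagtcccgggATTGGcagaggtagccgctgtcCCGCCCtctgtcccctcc
Idi1: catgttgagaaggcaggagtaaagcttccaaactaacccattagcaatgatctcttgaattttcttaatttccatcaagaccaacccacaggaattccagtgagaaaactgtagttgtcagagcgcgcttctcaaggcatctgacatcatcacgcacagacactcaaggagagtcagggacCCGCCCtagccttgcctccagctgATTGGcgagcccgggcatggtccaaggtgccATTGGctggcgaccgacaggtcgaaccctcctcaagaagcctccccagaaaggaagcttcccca
Lss: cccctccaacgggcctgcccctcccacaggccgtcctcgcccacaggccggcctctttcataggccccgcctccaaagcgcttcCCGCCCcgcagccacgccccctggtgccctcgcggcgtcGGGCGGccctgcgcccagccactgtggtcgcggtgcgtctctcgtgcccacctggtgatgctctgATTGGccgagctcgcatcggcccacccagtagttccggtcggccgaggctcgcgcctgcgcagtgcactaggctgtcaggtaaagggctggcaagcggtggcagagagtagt
Insig1: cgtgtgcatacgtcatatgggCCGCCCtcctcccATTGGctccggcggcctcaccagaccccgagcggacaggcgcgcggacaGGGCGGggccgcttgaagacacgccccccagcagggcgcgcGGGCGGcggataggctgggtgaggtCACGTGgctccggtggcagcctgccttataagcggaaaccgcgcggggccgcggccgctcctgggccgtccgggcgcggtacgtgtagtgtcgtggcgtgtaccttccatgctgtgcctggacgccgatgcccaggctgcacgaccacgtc

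The full sterol element core was found in the Hmgcs1 promoter alone among the 5 members with a promoter in the table (Dhcr7, listed with 3 starts, is the fifth), starting 137 bases before the start of the gene. This core is in 1.44% of all genes in the table, and in 1.24% of its 32851 promoters. CCAAT was found in 5 of 5 members and GGGCGG in 5 of 5, against 41.1% and 38.2% of all genes in the table, and CACGTG was found in 2 of 5, Insig1 and Dhcr7, against 8.09%. Of the other cholesterol synthesis enzymes, 10 of 11 with a promoter held CCAAT, 10 of 11 held GGGCGG and 0 of 11 held the sterol element core. A motif match is a description of these letters in this window. Sequences that differ from these letters or lie outside the window were not searched. Sqle, Fdft1 and Fdps had no entry.

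The probes are 60 bases long and the same on all arrays. By the positions listed for the KO arrays (mm9), 4 of the 17 probes cross an exon junction, since their listed span is longer than the probe, and these 4 are shown because the design version of the sort arrays lists them elsewhere in the genome.
Fdft1: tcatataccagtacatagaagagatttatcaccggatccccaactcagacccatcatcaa
Fdps: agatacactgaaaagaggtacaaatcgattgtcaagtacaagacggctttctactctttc
Idi1: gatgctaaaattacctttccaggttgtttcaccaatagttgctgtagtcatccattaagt
Insig1: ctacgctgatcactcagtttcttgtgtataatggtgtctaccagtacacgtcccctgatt

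The Fdft1 probe is listed at chr14:63765769-63770009 in the first version and at chr14:19364880-19364939 in the second, and the Fdps probe at chr3:88898812-88898952 and then at chr10:93241961-93242020. The Idi1 probe is listed at chr13:8886802-8887206 and then at chr2:53555566-53555625, and the Insig1 probe at chr5:28401146-28401618 and then at chr3:69767223-69767282. The other 13 probes have the same position in both versions, among them the single Sqle probe at chr15:59162384-59162443. The Fdft1 and Fdps probes shown are the brightest of their genes and stand for them below, and those of Idi1 and Insig1 are the dimmer ones. Whether transcripts from the second positions bind these probes was not tested.

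In whole colon, Sqle, Fdft1, Idi1 and Insig1 had higher levels in the Rspo3 KO mouse of both pairs, and none of the 8 genes was lower in both. This holds after loess, which takes out a dye effect that varies with intensity; with median centering 0 of 8 were higher in both pairs, and the means of all 8 were above 0. With the mean over the probes of a gene in place of the brightest probe, Fdft1 and Insig1 were no longer higher in both pairs, and Hmgcs1 was. No member passed the test. With limma and Benjamini-Hochberg adjustment over 15377 genes, 0 of 8 members had an adjusted p under 0.05, against 0.241% of all genes tested, and the adjusted p was 1.0 for each. At an unadjusted p under 0.05 the count of members was also 0. Levels and ratios below are on the log2 scale, and a ratio is KO over control for the brightest probe of the gene.

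Sqle, squalene epoxidase, had levels of 13.19 and 13.10 in the KO mice and 12.87 and 12.77 in the controls. Both KO levels lay above both control levels. The ratios of 0.32 and 0.33 had an SD of 0.0093 (n = 2 pairs). Their mean was 0.33 ± 0.23 (SE of the limma fit, n = 2 pairs), with a 95% interval from -0.20 to 0.85. This SE and the intervals here and below are moderated by the spread of all genes tested.

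Fdft1, squalene synthase, stood at 11.67 and 11.63 in the KO mice and at 11.47 and 11.44 in the controls, again with no overlap. Its mean ratio was 0.19, with an interval from -0.34 to 0.72. The dimmer Fdft1 probe, well above background in 3 of 4 channels, had ratios of -0.42 and 0.20, and the mean over both probes was 0.042 ± 0.217 (SD, n = 2 pairs). Idi1, the isomerase that makes dimethylallyl diphosphate, stood at 14.30 and 14.32 in the KO mice and at 13.81 and 14.05 in the controls. This was the highest mean ratio of the 8 genes, 0.38, with an interval from -0.16 to 0.91. The dimmer Idi1 probe had ratios of 0.37 and 0.99, in the same direction.

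Insig1 had ratios of 0.42 and 0.18, with KO levels of 8.29 and 8.62 and control levels of 7.87 and 8.44, so the groups overlapped. Its mean of 0.30 had an interval from -0.24 to 0.84, and the second Insig1 probe had ratios of 0.32 and -0.20. The 3 members with higher KO levels and no overlap compare with 12.6% of all genes tested, and the 4 of 8 members with a higher ratio in both pairs compare with 20.3%. A lower ratio in both pairs was seen in 0 of 8 members and 23.9% of all genes.

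**Figure D1:**
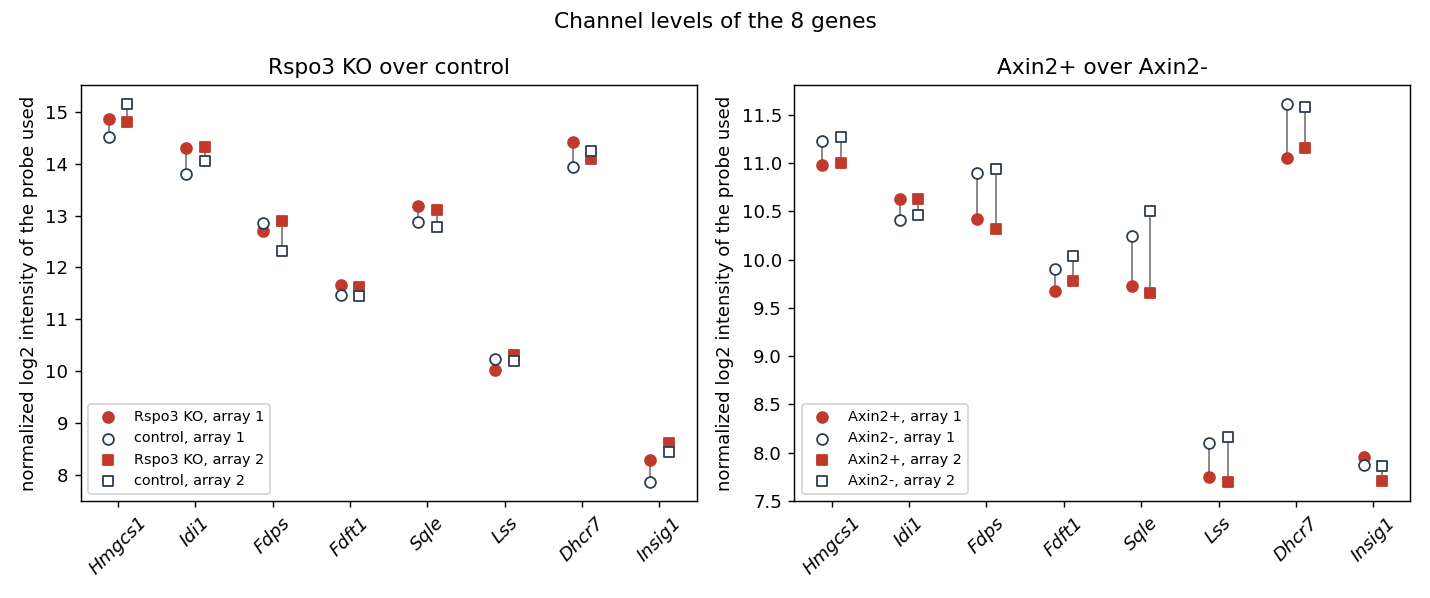
Normalized log2 intensity of the probe used for each of the 8 genes in every channel, Rspo3 KO and control on the left, Axin2+ and Axin2- on the right, with a line joining both channels of an array. On the left the KO levels of Idi1, Fdft1 and Sqle lie above both controls, and on the right every gene but Idi1 and Insig1 lies lower in Axin2+ on both arrays; heights of different genes cannot be compared.

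The other 4 members had ratios of opposite sign in the 2 pairs. Hmgcs1, the synthase that makes HMG-CoA, had ratios of 0.35 and -0.36, and Dhcr7, which makes cholesterol from 7-dehydrocholesterol, had 0.49 and -0.16. Fdps, which makes farnesyl diphosphate, had -0.14 and 0.57, and Lss, which closes the sterol ring system as lanosterol, had -0.20 and 0.12. Their levels overlapped between KO and control mice.

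The dimmer probes did not always have the sign of the brightest. For Hmgcs1 a dimmer probe had ratios of 0.09 and 0.84 where the brightest had 0.35 and -0.36. Over all 17 probes, 6 were higher in KO in both pairs, 0 were lower in both and 11 were of opposite sign. Of the 17 probes, 15 were well above background in all 4 channels and 0 were saturated.

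As a group, the 8 genes had a median ratio of 0.33 in pair 1 and 0.18 in pair 2, and of 0.20 for the mean of the pairs, where all genes had -0.01. With the mean past 1.5-fold and both pairs alike in sign as the limit, 0 of the 8 genes and 4.32% of all genes passed it. Of the 8 intervals, 8 include 0, and the upper limits of 0.50 to 0.91 include changes past 1.5-fold (0.585 on the log2 scale) for 7 genes.

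**Figure D2:**
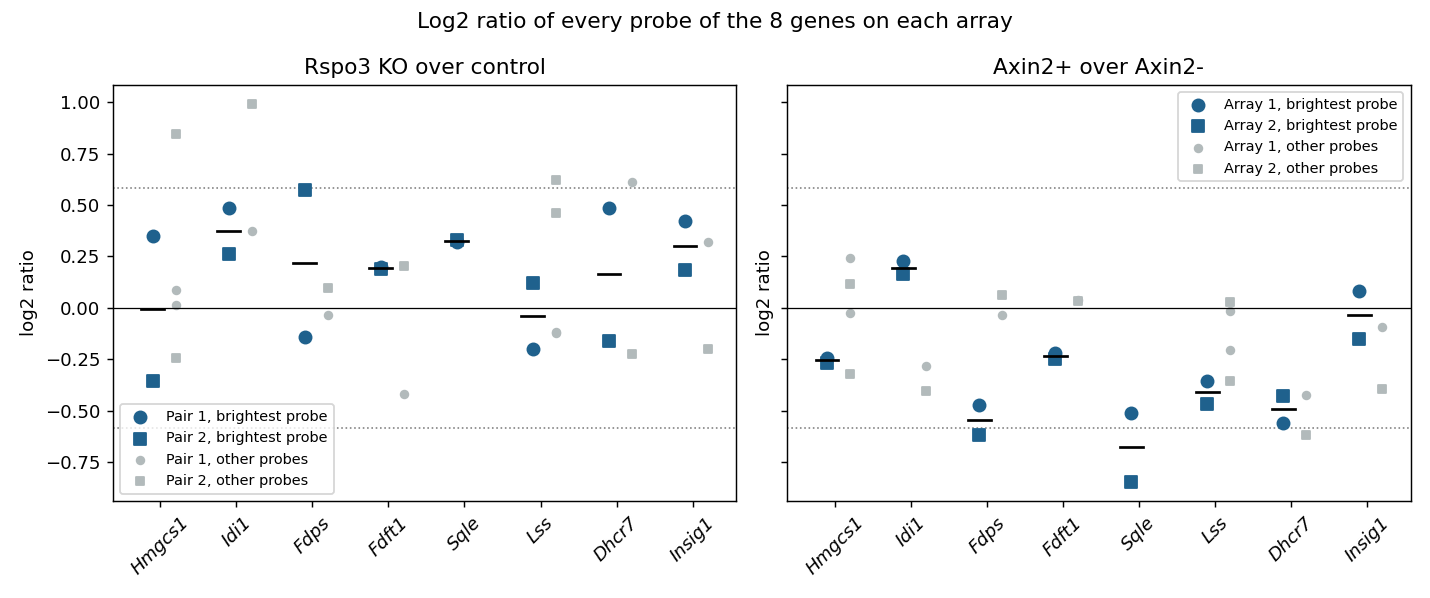
Log2 ratio of every probe of the 8 genes on each array, Rspo3 KO over control on the left and Axin2+ over Axin2- on the right, with large symbols for the brightest probe, black bars for its mean and small gray symbols for the other probes. Dotted lines mark 1.5-fold; the pairs on the left often lie on opposite sides of 0, and on the right Sqle, at -0.51 and -0.85, has the lowest mean, and Dhcr7 lies lower than Sqle on array 1.

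In the sorted epithelial cells, 6 of the 8 genes were lower in Axin2+ than in Axin2- cells on both arrays, against 41.7% of all 15887 genes measured. With median centering in place of loess, 6 of 8 had a mean ratio below 0, and 0 of 8 were lower on both arrays. Sqle had the lowest mean, 1.60-fold lower. Sqle was past 1.5-fold, 1 of 8 members against 6.92% of all genes that were lower past this limit, and 0 of 8 were higher past it, against 7.86% of all genes. The median ratio of the 8 genes was -0.33, with -0.30 and -0.35 on the 2 arrays, where all genes had -0.005. Taken by single arrays, 0 of 8 were past the limit on array 1, and 2 of 8, Sqle and Fdps, were on array 2. With 1 replicate these values describe this pair of pools.

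Sqle stood at 9.73 and 9.65 in the Axin2+ channels and at 10.24 and 10.50 in the Axin2- channels. Its ratios of Axin2+ over Axin2- were -0.51 and -0.85. Fdps had ratios of -0.47 and -0.62, Dhcr7 of -0.56 and -0.43, and Lss of -0.36 and -0.47. These 3 genes had mean ratios of -0.55, -0.49 and -0.41, short of the limit. Lss, at -0.64 with the extraction software's own ratios, was past it there, and had -0.23 with the mean over probes.

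Hmgcs1 with -0.24 and -0.27 and Fdft1 with -0.22 and -0.25 differed less between the pools. With the mean over probes Hmgcs1 had a mean of -0.08, and with median centering -0.45. For Lss the brightest probe was not the same one in both experiments. The Lss probe used here had ratios of -0.12 and 0.62 in the KO pairs, and the one used there had -0.21 and 0.03 in the sorted cells.

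Idi1 was the exception among the enzymes, with 0.23 and 0.16 from its brightest probe, at chr13:8891386-8891445. The dimmer Idi1 probe, whose sequence is shown above, had -0.28 and -0.40, so the direction of Idi1 in the sorted cells rests on the choice of the probe. Both probes were above background in every channel. Insig1 had ratios of 0.08 and -0.15 from its brightest probe and -0.10 and -0.40 from the other.

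Over all 17 probes, 11 were lower in Axin2+ cells on both arrays, 3 were higher on both and 3 were of opposite sign. Of the 3 higher ones, 1 is the brightest Idi1 probe, 1 is a dim Hmgcs1 probe named after a cDNA clone, with 0.24 and 0.12, and 1 is a dim Fdft1 probe with no channel well above background.

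The other enzymes of the route were lower in Axin2+ cells too. Of 11 listed and measured, 11 had a ratio below 0 on both arrays, against 41.7% of all genes, and 4 were past 1.5-fold, where 6.92% of all genes were. Their median ratio was -0.39. Msmo1 had the lowest mean of -0.97, followed by Sc5d (-0.87), Tm7sf2 (-0.84) and Cyp51 (-0.73). These 4 act after Lss in the route, as do Ebp (-0.39), Nsdhl (-0.25), Hsd17b7 (-0.07) and, of the 8 genes, Dhcr7 (-0.49). Together with the 7 enzymes among the 8 genes, 17 of 18 enzymes were lower on both arrays and 5 were past 1.5-fold, with a median of -0.40. With median centering in place of loess, 17 of 18 still had a mean ratio below 0, and 0 of 18 were lower on both arrays.

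**Figure D3:**
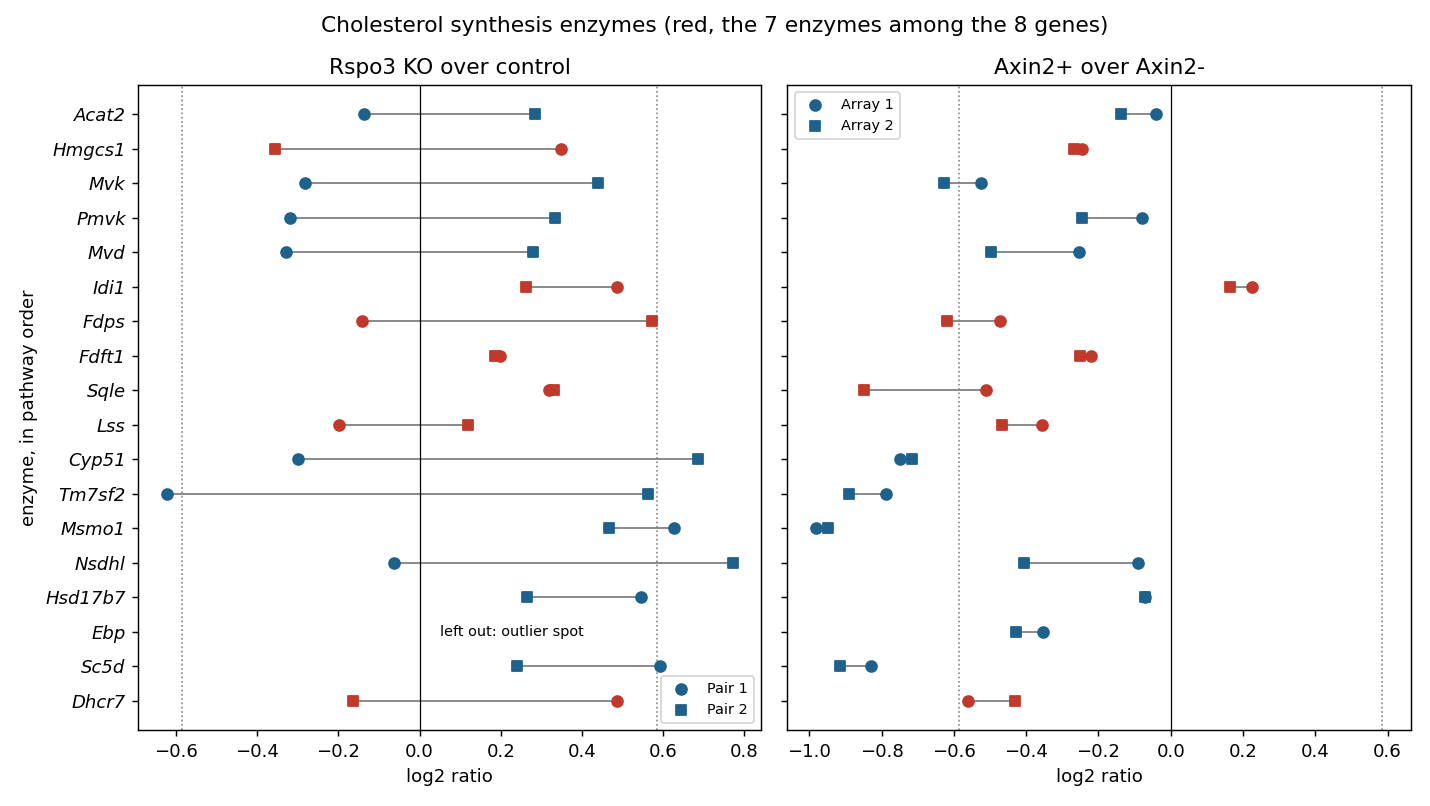
Log2 ratio of 18 cholesterol synthesis enzymes on each array, in the order in which they act, with the 7 enzymes among the 8 genes in red and dotted lines at 1.5-fold. In Axin2+ cells every enzyme but Idi1 lies below 0 on both arrays, and in the Rspo3 KO pairs 6 of 17 lie above 0 in both, 0 below in both and 11 on either side.

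In the KO pairs, 6 of 17 measured enzymes were higher in both pairs, 0 were lower in both and 11 were of opposite sign, 9 of them lower in pair 1 and higher in pair 2. Of all genes, 20.3% were higher in both pairs and 23.9% lower in both. With median centering 3 of 17 were higher in both pairs and 0 lower in both. Among the other enzymes, Msmo1 had ratios of 0.63 and 0.47 (limma adjusted p = 1.0), Sc5d 0.59 and 0.24, and Hsd17b7 0.55 and 0.27. Ebp was left out because its only probe was marked as an outlier by the extraction software on 1 of the 2 arrays.

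Of the genes that control the route, Srebf2 (SREBP2) had ratios of -1.05 and 0.82 in the KO pairs and -0.47 and -0.19 in the sorted cells. Srebf1, whose product acts mainly on fatty acid synthesis, had -0.92 and -0.47 in the KO pairs (limma adjusted p = 0.809) and 0.19 and 0.24 in the sorted cells. Insig2 had 0.59 and -0.02, then -0.03 and -0.47. No gene of the 6 SREBP regulators passed the test.

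Of the genes of uptake and transport, 0 of 7 measured passed the test. Mylip had ratios of -1.48 and -0.30 in the KO pairs (limma adjusted p = 0.809). Lipa, the lysosomal lipase that frees cholesterol from its esters, was the 1 uptake gene past 1.5-fold in the sorted cells, with a mean of -1.23.

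Among efflux genes, Abcg1 had -0.99 and -0.86 in the KO pairs (limma adjusted p = 0.373), and Abcg5, a subunit of a sterol exporter at the apical membrane, had -0.55 and -0.83 there (limma adjusted p = 0.758) and a mean of -1.33 in the sorted cells. Abca1 was higher in Axin2+ cells, with a mean of 1.17. Of the 10 fatty acid synthesis genes, Scd1 was lower past 1.5-fold in the sorted cells, with a mean of -0.62, and the list had a median of -0.08. The list of isoprenoid branches had 0 genes past 1.5-fold in either experiment and a median of -0.004 in the sorted cells.

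**Figure D4:**
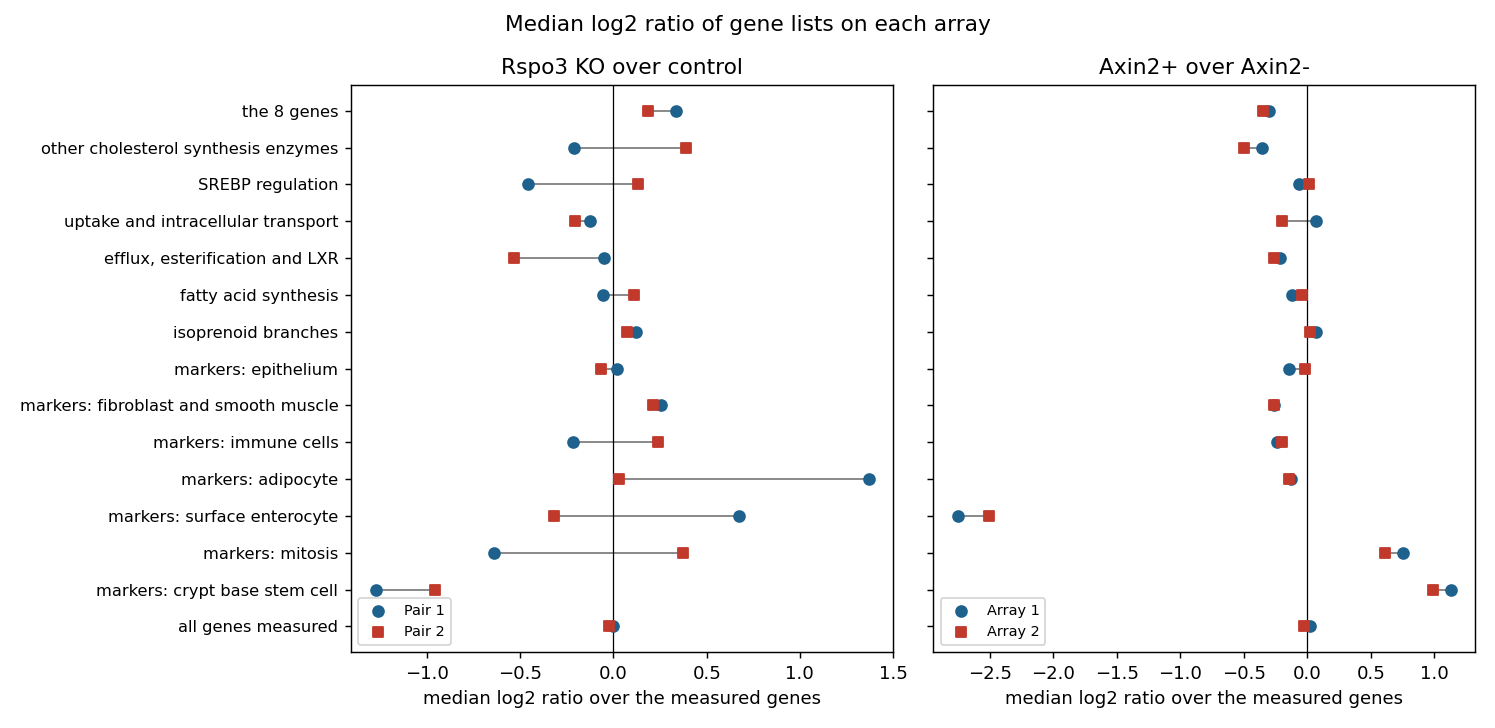
Median log2 ratio of the 8 genes, of the other pathway lists, of cell type marker lists and of all genes measured, with 1 symbol per array; Rspo3 KO over control on the left and Axin2+ over Axin2- on the right. In the sorted cells surface enterocyte markers lie at -2.75 and -2.50 and the 8 genes at -0.30 and -0.35; in the KO pairs several marker lists lie on opposite sides of 0.

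Cell type marker levels also differed between the channels in both experiments. In the sorted cells, 6 of 7 surface enterocyte markers were lower in Axin2+ cells past 1.5-fold. The 7 mean ratios ran from -0.18 for Muc3 to -3.12 for Car4, and their summed level on the linear scale was 53688 and 49817 in Axin2+ against 175034 and 150763 in Axin2- channels. Of 10 mitosis markers 8 were higher past 1.5-fold, with a median of 0.68, and of 7 crypt base stem cell markers 6 were, with a median of 1.07. Axin2, whose Cre label defined the sort, is among these 6, with a mean of 1.32. No surface enterocyte marker was missing. Of 7 immune cell markers measured, 6 had a ratio below 0 on each array, and the median over the 7 was -0.24. Lyz2, a lysozyme of macrophages, was the lowest with -1.60, and Ptprc, the leukocyte marker CD45, had -0.57. The summed level of the 7 immune cell markers was 1050 and 1077 in Axin2+ against 1386 and 1453 in Axin2- channels. This gave log2 ratios of -0.40 and -0.43, and the summed level of the 8 genes had -0.31 and -0.36. Cd3e was the brightest of the 7 in Axin2+ channels, at 9.21 and 9.13 on the log2 scale. The others lay between 6.06 and 6.76 there, near the lowest levels well above background, 5.92 and 6.10. C1qa was not well above background in Axin2+ channels. The part of these markers in the lower ratios of the 8 genes was not tested.

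In the KO pairs, 3 of 6 adipocyte markers were measured, with a median ratio of 1.37 in pair 1 and 0.03 in pair 2. Cfd had ratios of 1.35 and -2.18, Fabp4 1.37 and 0.14, and Lpl 1.77 and 0.03. Their summed level was 40274 and 10585 in KO against 15464 and 9940 in control mice. Adipoq and Plin1 were above background on the array of pair 1 only. Of 7 surface enterocyte markers 4 were measured, with medians of 0.67 and -0.32, and their summed level was 45776 and 26899 in KO against 27254 and 35877 in control mice. Hmgcs1 and Dhcr7 had ratios with the signs of these medians in the pairs, and Fdps and Lss had ratios of the opposite signs. Of the 4 markers, Car4, Ceacam20 and Slc26a3 had the signs of the medians, and Muc3 had -0.01 and 0.41. The signs of the medians rest on these 4 markers. With outlier spots kept, Guca2a had ratios of 0.30 and 1.09, Krt20 -0.03 and 0.89, and Aqp8 0.65 and -0.02. Of 8 immune cell markers 6 were measured, with medians of -0.22 and 0.24 and a summed level of 8010 and 7091 in KO against 7796 and 5627 in control mice. Ms4a1, the B cell marker CD20, had ratios of -2.75 and -2.27 and passed the test (limma adjusted p = 0.0127), and its adjusted p ranged from 8.91e-06 to 1.0 over the other settings. Adgre1, a macrophage marker, had 0.72 and 0.66 (limma adjusted p = 0.737). Of 10 mitosis markers 0 passed the test, with medians of -0.64 and 0.37. Fdps and Lss had ratios with the signs of the mitosis and immune cell medians, and Hmgcs1 and Dhcr7 had the opposite signs. The crypt base stem cell markers were lower in 6 of 7 in both pairs, with medians of -1.28 and -0.95. Of 6 epithelium markers 4 were measured, with medians of 0.02 and -0.07, and the 8 markers of fibroblasts and smooth muscle had 0.25 and 0.21. Krt18, Krt19, Krt20, Aqp8 and Guca2a were left out as outlier spots. The part of these markers in the ratios of the 8 genes was not tested.

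The 3 genes outside all lists whose 4 log2 ratios lay nearest to the medians of the 8 genes, by Euclidean distance over 13628 genes, were Ugp2 (0.0887), Galnt1 (0.105) and Osr1 (0.117). Ugp2 had 0.41 and 0.21 in the KO pairs and -0.33 and -0.36 in the sorted cells.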

How the data were processed

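Dual-color Agilent arrays were analyzed for 2 pairs of Rspo3 KO and control mice and for 1 pair of Axin2+ and Axin2- pools with a dye swap. The authors labeled and hybridized the RNA and ran Feature Extraction (version 11.5.1.1), and deposited for each spot the mean signal and background intensity of both dyes on a linear scale. They also deposited a log10 ratio of both dyes (Cy5 over Cy3), the same value that the series' table holds. The log ratios were used as alternatives only. Columns with the software's p-values were not used.

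Background was corrected with limma (version 3.58.1, R version 4.3.3) by normexp with an offset of 50, fitted without spots of outlying background, and ratios were normalized by loess within each array and turned to Rspo3 KO over control and Axin2+ over Axin2-. Levels per channel were scaled by Aquantile within an experiment. Outlier spots were left out, which on the KO arrays takes away some of the most abundant transcripts. For each gene the brightest probe was taken, and genes entered where both arrays had this probe well above background in 1 or 2 channels. The KO pairs were tested against 0 with lmFit and eBayes, with 1 residual and 6.76 prior degrees of freedom and Benjamini-Hochberg adjustment over 15377 genes, and the fit was tested on simulated data. The fit leaves out dye, since each pair has its own orientation. Of the 41174 probes, 27675 were named by accession, 5587 by symbol and 471 by synonym through RefSeq (GRCm38.p6), and 7441 kept the array's name.

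The members, the lists and the named genes (the 8 genes, listed genes past a threshold, 3 regulators, checks, markers and the 3 nearest genes) were chosen with earlier results of these data known. Another 3 genes of the pathway are not reported here. A 1.5-fold limit with the same direction on both arrays is called past the limit. Alternatives were the software's ratios, no background correction, background fitted to all spots, a normexp offset of 16, median centering, other filters, the mean over probes, a 2-fold limit, a fit over 4 arrays, each array left out and, added after seeing the data, outlier spots kept. Labels name TRIzol and the methods an RNeasy kit for the RNA. The error-weighted combination of ratios that the methods describe was not repeated here. Animals per channel come from the methods, and probe positions are those of mm9.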

Additional observations from a re-analysis of the deposited data

How the results depend on the processing

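No member passed the test in any setting run, with 0 members at an unadjusted p below 0.05 in the main setting and 1 with the mean over probes, and the number of all genes past it went from 37 to 209 with 4 arrays and a dye term, 131 with the software's log ratios or the series' table, 71 without background correction, 127 with an offset of 16, 1 with background fitted to all spots, 8 with median centering, 0 without the filter on dim probes (by limma, with 1205 at an unadjusted p below 0.05) and 5 with the mean over probes. The cause was not tested. The median KO ratio of the 8 genes ranged from 0.18 to 0.33 with 1 pair left out. With 1 pair left out, Hmgcs1 ranged from -0.36 to 0.35, Lss from -0.20 to 0.12, Dhcr7 from -0.16 to 0.49 and Fdps from -0.14 to 0.57. Hmgcs1, at -0.004 in the main setting, was 0.031 with the software's ratios or the series' table, 0.025 with median centering, 0.23 with the mean over probes and 0.0078 with outlier spots kept. Lss, at -0.04, was 0.031 with background fitted to all spots, 0.015 with median centering and 0.13 with the mean over probes. The means of Idi1, Fdft1, Sqle and Insig1 stayed above 0 in every setting run, but with the mean over probes Fdft1 fell to 0.042 and Insig1 to 0.18, with pairs of opposite sign, and with median centering none of the 4 was higher in both pairs. The count of members past 1.5-fold in the sorted cells ranged from 0 to 2 with 1 array left out, was 0 at 2-fold, at 1.5-fold on each array and with median centering, and was 2 with the software's ratios or the series' table, where Lss joined Sqle. The median ratio there was -0.38 with the software's ratios or the series' table, -0.37 without background correction, -0.40 with an offset of 16 or median centering, and -0.23 with the mean over probes. Idi1 had -0.07 in the sorted cells with the mean over probes. The outlier setting was chosen after seeing the data, and gave 30 genes past the test. Beyond the KO test, which already sets the ratios within each pair of mice against 0, no paired analysis was possible because each ratio holds its own pairing, and the sorted pools are 1 pair. Signal over background limited few of the 17 probes, since 15 on the KO arrays and 14 on the sort arrays were well above it in every channel.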
